A study of Homo sapiens with 6 samples.

Results

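Fructosamine-3-kinase (FN3K) and glyoxalase I (GLO1) are enzymes that limit the damage done by sugars and by their breakdown products. Both were found by gene name in the deposited table and make up 2 of its 6357 assembled loci. The RNA came from HepG2, a line of human liver cancer cells, grown in EMEM with fetal bovine serum. The study compared 3 plates of wild type (WT) cells with 3 plates of cells in which FN3K had been knocked out by CRISPR (FN3K KO), to find pathways related to the kinase. Both groups share the parental line and the medium, and no further treatment is named. Whether the KO plates come from 1 edited clone is not given in the sources used here, so p-values measure the spread between plates and not between edited lines.

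Reducing sugars react with lysine side chains without any enzyme, and the adduct settles into a fructosamine. FN3K phosphorylates the sugar part of the fructosamine, which then falls off and frees the lysine, while 3-deoxyglucosone, a reactive dicarbonyl, is released. GLO1 works on another dicarbonyl, methylglyoxal, which arises mainly from the triose phosphates of glycolysis. It turns the adduct of methylglyoxal and glutathione into lactoylglutathione, and hydroxyacylglutathione hydrolase (HAGH) then gives D-lactate and returns the glutathione.

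FN3K lies on chromosome 17 from 82735575 to 82751197 on the plus strand (GRCh38, GENCODE version 29). The transcript that the table pairs with it has 6 exons and 1434 bases, of which 927 are coding. A sense-intronic RNA gene is annotated inside it on the same strand. GLO1 lies on chromosome 6 from 38675925 to 38703141 on the minus strand, and its transcript has 6 exons, 2012 bases and 552 coding bases. No other annotated gene overlaps it. The 250 bases before the RefSeq start of GLO1 (chr6:38703146-38703395, minus strand, build GRCh38.p14) are shown because they hold the promoter of the gene that rose. They run 5′ to 3′ along the gene, and capitals would mark the bases of a motif, of which none was found.
GLO1 promoter: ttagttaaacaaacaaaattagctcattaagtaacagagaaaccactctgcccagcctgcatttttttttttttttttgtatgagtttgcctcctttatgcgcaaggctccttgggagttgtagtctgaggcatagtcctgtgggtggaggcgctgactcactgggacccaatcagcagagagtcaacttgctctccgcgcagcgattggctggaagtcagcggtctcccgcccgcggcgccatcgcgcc

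The GLO1 stretch was 51.2% G or C, with 12 CpG, beside a median of 58% over 35116 promoters. Core motifs were searched on both strands in 300 bases that also take in the first transcribed bases: the antioxidant response element core TGACNNNGC, the metal response element cores TGCACNC and TGCGCNC, and the sterol response element core TCACNCCAC. GLO1 held none of these letters in this window. Of all promoters, 13.3% held TGACNNNGC, 12.1% TGCACNC, 20.0% TGCGCNC and 1.13% TCACNCCAC.

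FN3K mRNA was nearly lost in the KO cells while GLO1 mRNA more than doubled. FN3K stood at 27.7, 21.9 and 23.2 FPKM across the WT plates and at 0.782, 1.03 and 0.704 FPKM across the KO plates. FPKM counts fragments per transcript length and per mapped fragments of the library, so levels of different genes can be set side by side. Every KO library lay far below every WT library and held 3.22%, 4.23% and 2.90% of the WT mean. Against the other loci of its library, FN3K sat at or above the 67.0 percentile in WT and between the 3.05 and 3.18 percentile in KO. The targeted gene went with the labels in all 6 libraries.

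On the scale of log2(FPKM + 1), FN3K fell by 3.78 (SE 0.13, limma adjusted p = 1.1e-07). That is 13.7-fold on this scale, which understates the change of a gene near 1 FPKM, and the group means differed by a ratio of 28.99. A pseudocount of 0.1 moved the log2 difference to -4.71. Of all 6357 loci, 1 had a lower log2 fold change. A two-sided exact permutation test on the 6 FPKM values gave p = 0.10, the least that 3 against 3 can give. Depth is unknown, so no detection limit can be set under the FPKM that remained in KO.

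GLO1 had 30.4, 30.1 and 31.6 FPKM in WT and 69.8, 65.2 and 72.3 FPKM in KO, with every KO library above every WT library. The WT plates were close, with a coefficient of variation of 2.66% for GLO1 beside 12.6% for FN3K. GLO1 rose by 1.14 on the log2 scale (SE 0.06, limma adjusted p = 1.2e-06), or 2.21-fold, with an exact permutation p = 0.10. It moved from between the 76.2 and 77.6 percentile of its library in WT to between the 90.1 and 91.2 percentile in KO, and 212 loci had a higher log2 fold change. The Ballgown model differs from limma in a pair of ways, since it adds a library covariate and does not share the variance between loci. In it, fitted across all loci in place of limma, FN3K stood at -3.87 and GLO1 at 1.12, with adjusted p = 0.015 and 0.020.

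**Figure D1:**
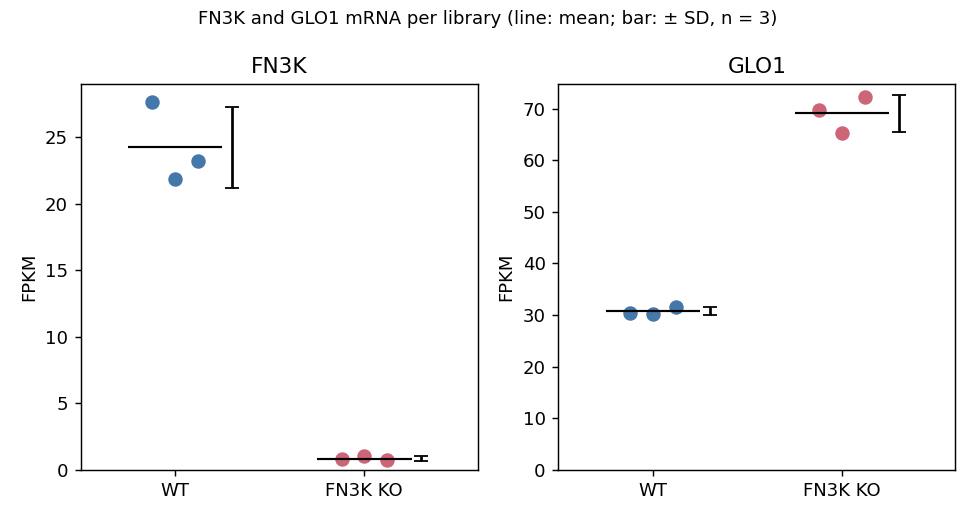
FPKM of FN3K (left) and GLO1 (right) in each of 3 WT and 3 FN3K KO libraries, each axis starting at 0, with the mean as a line and ± SD as a bar. FN3K drops from 21.9 or more to 1.03 or less, and GLO1 rises from 31.6 or less to 65.2 or more.

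Both shifts stand within a broad difference between the groups. In limma 57.7% of loci had an adjusted p under 0.05, made up of 21.2% higher and 36.5% lower in FN3K KO, and the libraries of the groups did not overlap for 63.4% of loci. The median log2 fold change was -0.14, with quartiles at -0.42 and 0.21. The calls were 1348 higher and 2322 lower in limma, and 606 higher and 521 lower in the Ballgown model, where 17.7% of loci were called. Limma with the library covariate called 34% of loci, 1085 higher and 1075 lower, and an ordinary linear model with no covariate called 46.2%, 1103 higher and 1835 lower. Pearson correlations across loci were 0.980 to 0.983 within groups and 0.923 to 0.931 between them. Of 10 hepatocyte and HepG2 markers 9 are listed by name (ALB is not). Their summed level ran from 7881 to 8001 FPKM in WT and from 14528 to 15754 FPKM in KO, with 5 higher and 1 lower. Markers of fibroblasts, endothelial cells and leukocytes had no entry by name. The part of the hepatocyte marker shift in the GLO1 result was not tested. In bulk RNA, more expressing cells and more RNA per cell cannot be told apart.

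**Figure D2:**
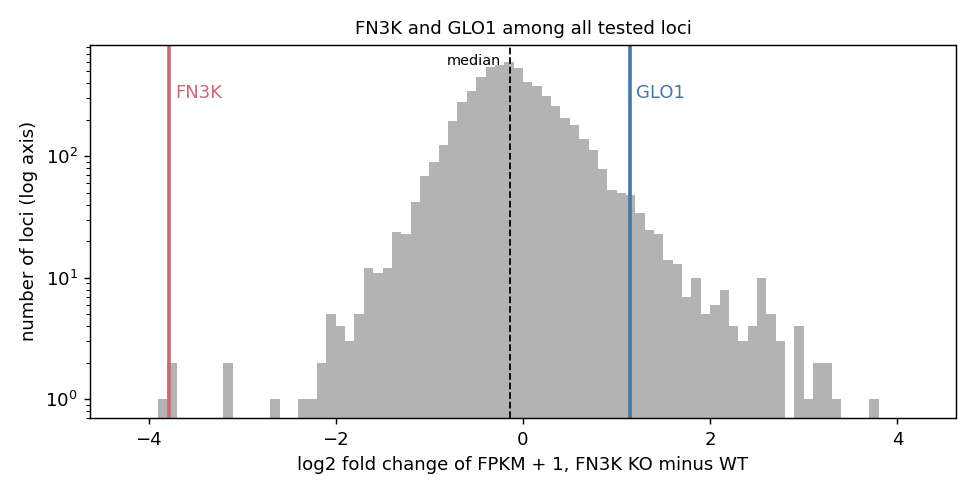
Number of loci (log axis) by log2 fold change of FPKM + 1, FN3K KO minus WT, for all 6357 loci, with lines at FN3K, GLO1 and the median. FN3K at -3.78 lies at the low end, and GLO1 at 1.14 lies in the upper tail with 212 loci beyond it.

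In WT cells the transcripts of GLO1 and FN3K stood at like levels, with 1.10, 1.37 and 1.36 GLO1 FPKM for each FPKM of FN3K, although every WT value of GLO1 was above every WT value of FN3K. In KO cells this ratio was 89.2, 63.5 and 103. The log2 ratio differed by 6.04 between the groups (exact permutation p = 0.10). FN3K is the targeted gene, so its fall alone sets the groups apart in this ratio.

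The other gene of fructosamine repair with an entry, ACP1, did not pass the test. ACP1 is a low molecular weight phosphatase that also acts on ribulosamine phosphates. It had 103, 113 and 121 FPKM in WT and 116, 115 and 121 FPKM in KO, with overlapping groups and a log2 fold change of 0.06 (SE 0.07, limma adjusted p = 0.46). FN3KRP, the paralog of FN3K, and MDP1 have no entry by name and were not analysed here.

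On the glyoxalase route, GLO1 and HAGH rose, and the other 4 genes listed did not pass the test. These 33.3% called, all higher, compare with 57.7% called and 21.2% higher among all loci. Without GLO1 itself, 1 of 5 was called, as higher, or 20%, which is near the 21.2% higher among all loci. HAGH had 34.6, 35.9 and 35.0 FPKM in WT and 48.8, 54.0 and 49.7 FPKM in KO, with no overlap. Its log2 fold change was 0.52 (SE 0.06, limma adjusted p = 1.0e-04). The GLO1 to HAGH ratio of FPKM went from 0.881, 0.837 and 0.905 in WT to 1.43, 1.21 and 1.46 in KO, again without overlap. The log2 ratio differed by 0.64 (exact permutation p = 0.10).

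PARK7, a redox-sensitive protein also described to act on methylglyoxal adducts, had 85.2, 87.7 and 89.5 FPKM in WT and 79.5, 80.8 and 87.2 FPKM in KO. The groups overlapped, and its log2 fold change was -0.08 (SE 0.06, limma adjusted p = 0.22). ESD, which hydrolyses formylglutathione, stood at -0.07 (SE 0.05, limma adjusted p = 0.28). GLOD4, a protein with a glyoxalase domain, stood at -0.15 (SE 0.08, limma adjusted p = 0.12). PNKD, a relative of HAGH, stood at 0.12 (SE 0.09, limma adjusted p = 0.28), and at 0.22 without FN3K KO replicate 2, where it passed (limma adjusted p = 0.034). LDHD, which oxidises D-lactate, and HAGHL have no entry by name.

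By level, GLO1 was the fourth of these 6 genes in WT and the second in KO. In WT the order of mean FPKM was PARK7 at 87.5, ESD at 43.1, HAGH at 35.2, GLO1 at 30.7, GLOD4 at 15.4 and PNKD at 13.5, and no neighbours in this order overlapped across the 3 libraries. In KO it was PARK7 at 82.5, GLO1 at 69.1, HAGH at 50.8, ESD at 41.0, PNKD at 14.9 and GLOD4 at 13.7. There the libraries of PNKD and GLOD4 overlapped, while those of the other neighbours did not.

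**Figure D3:**
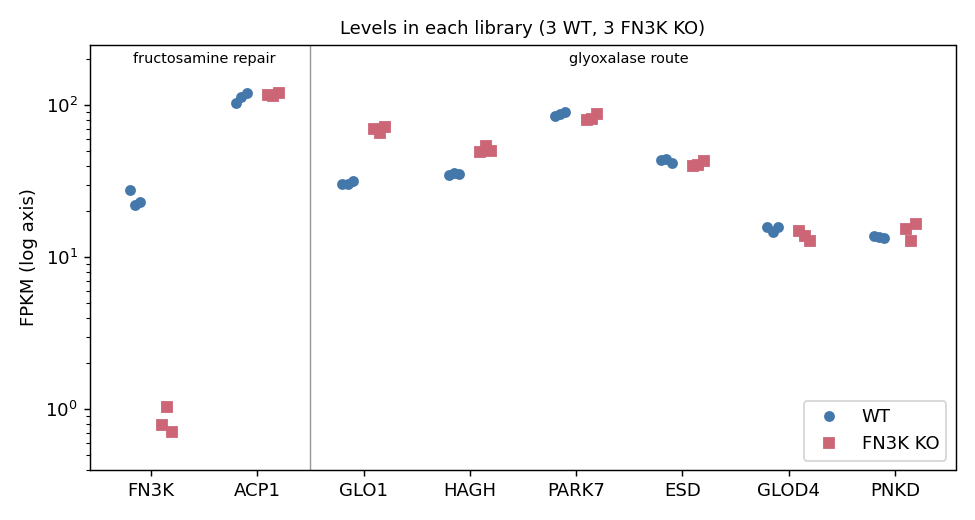
FPKM (log axis) of the listed genes of fructosamine repair and of the glyoxalase route in each of 3 WT (circles) and 3 FN3K KO (squares) libraries. FN3K falls, GLO1 and HAGH rise with no overlap of the groups, and the groups of the other 5 genes overlap.

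Enzymes that reduce or oxidise dicarbonyls and related aldehydes beside GLO1 were mostly higher in KO cells. Of 23 genes in this list 11 are listed by name, and 8 were higher and 1 lower in limma, or 72.7% higher where 21.2% of all loci were. Their median log2 fold change was 0.45, beside -0.14 for all loci. ALDH1A1, an aldehyde dehydrogenase best known for oxidising retinal, had 87.3, 99.9 and 104 FPKM in WT and 194, 191 and 208 FPKM in KO. It rose by 1.02 (SE 0.07, limma adjusted p = 8.2e-06), beside 1.14 for GLO1. AKR1C1, an aldo-keto reductase that also reduces steroids, had 93.0, 89.0 and 90.7 FPKM in WT and 175, 173 and 186 FPKM in KO and rose by 0.96 (SE 0.05, limma adjusted p = 1.7e-06). AKR1C2 rose by 0.67 (SE 0.05, limma adjusted p = 1.5e-05), but the AKR1C genes are near copies of each other and could share reads.

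The reductases best known for methylglyoxal and 3-deoxyglucosone did not all rise with GLO1. AKR1B1 (aldose reductase), which reduces methylglyoxal and starts the polyol pathway, had 21.0, 20.5 and 24.5 FPKM in WT and 21.2, 24.3 and 22.7 FPKM in KO. The groups overlapped, at a log2 fold change of 0.05 (SE 0.08, limma adjusted p = 0.66). AKR1A1, which reduces 3-deoxyglucosone and other aldehydes, stood at 0.11 (SE 0.06, limma adjusted p = 0.14). DCXR, a dicarbonyl and xylulose reductase, had 89.2, 90.5 and 92.1 FPKM in WT and 69.1, 79.0 and 80.9 FPKM in KO, and it fell by 0.25 on the log2 scale (SE 0.07, limma adjusted p = 0.011). DCXR is also counted among the neighbours of FN3K described below, at -698 kb. CBR1, a carbonyl reductase, rose by 0.56 (SE 0.07, limma adjusted p = 2.2e-04). The aldehyde dehydrogenases ALDH1B1, ALDH7A1 and ALDH9A1 rose by between 0.43 and 0.46. AKR7A2, an aldo-keto reductase, rose by 0.22 (SE 0.06, limma adjusted p = 0.020). In the Ballgown model 5 of the 11, or 45.5%, were called, all higher, where 17.7% of all loci were. The limma calls of CBR1, ALDH7A1, AKR7A2 and DCXR were lost there.

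GLO1 uses glutathione as its cofactor, and 9 of 15 genes of glutathione supply and of the NADPH that reduces it are listed by name. In limma 6 were higher and 2 lower, so 88.9% were called where 57.7% of all loci were, and the median of their log2 fold changes was 0.31. IDH1, a cytosolic source of NADPH, rose by 0.77 (SE 0.08, limma adjusted p = 6.0e-05). GCLM, the modifier subunit of the enzyme that limits glutathione synthesis, had 6.01, 7.41 and 7.19 FPKM in WT and 10.8, 10.9 and 11.6 FPKM in KO and rose by 0.63 (SE 0.10, limma adjusted p = 6.8e-04). GCLC, the catalytic subunit of the same enzyme, had 21.7, 23.1 and 23.3 FPKM in WT and 19.4, 20.9 and 18.3 FPKM in KO. It fell by 0.20 (SE 0.07, limma adjusted p = 0.031), a call lost in 4 of the fits with 1 library left out. SLC7A11, the cystine carrier, fell by 0.44 (SE 0.11, limma adjusted p = 0.0072), and GSR, which regenerates reduced glutathione, stood at 0.07 (SE 0.05, limma adjusted p = 0.26). In the Ballgown model 2 of the 9 were called, both higher, and GCLM was among them. This is 22.2%, near the 17.7% of all loci in the same model.

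Among genes that supply glycating sugars and the triose phosphates behind methylglyoxal, 16 of 25 are listed by name, and 7 were higher and 4 lower. These 68.8% called compare with 57.7% of all loci, and the median log2 fold change was 0.19. TPI1, which interconverts the triose phosphates, had 111, 122 and 121 FPKM in WT and 133, 129 and 122 FPKM in KO, a log2 fold change of 0.12 that did not pass (SE 0.06, limma adjusted p = 0.13). GAPDH, which draws off glyceraldehyde phosphate, stood at -0.08 (SE 0.07, limma adjusted p = 0.34). The glucose carrier SLC2A1 had 103, 110 and 109 FPKM in WT and 52.9, 59.7 and 52.9 FPKM in KO, and fell by 0.95 (SE 0.06, limma adjusted p = 5.3e-06). Hexokinase HK2 fell by 0.69 (SE 0.10, limma adjusted p = 5.3e-04) and the carrier SLC2A2 by 0.58 (SE 0.14, limma adjusted p = 0.0072), but neither was called in the Ballgown model.

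ALDOC, an aldolase that yields triose phosphates, had 1.48, 2.13 and 1.98 FPKM in WT and 12.5, 11.8 and 11.8 FPKM in KO. It rose by 2.19 (SE 0.13, limma adjusted p = 2.8e-06), the highest log2 fold change of the 46 listed genes other than FN3K and GLO1. TKFC, the kinase that brings dihydroxyacetone and glyceraldehyde into the triose pool, had 14.8, 15.7 and 15.2 FPKM in WT and 30.9, 29.1 and 32.2 FPKM in KO and rose by 0.97 (SE 0.06, limma adjusted p = 4.9e-06). TALDO1, a transaldolase of the pentose phosphate pathway, rose by 0.57 (SE 0.06, limma adjusted p = 5.3e-05), while RPIA, which isomerises ribose phosphate, fell by 0.40 (SE 0.09, limma adjusted p = 0.0046). The Ballgown model called 5 of the 16, or 31.2%, where 17.7% of all loci were called: ALDOC, TKFC, TALDO1 and PFKL were higher and SLC2A1 was lower.

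Of 10 AGE (advanced glycation end product) receptors and uptake proteins 3 are listed by name, and AGER itself is not. LGALS3 (galectin-3), which binds AGEs among many glycans, had 8.31, 11.0 and 12.6 FPKM in WT and 36.6, 38.2 and 41.4 FPKM in KO, with every KO library above every WT library. It rose by 1.79 (SE 0.13, limma adjusted p = 7.1e-06). PRKCSH, a glucosidase subunit also described in AGE binding, fell by 0.39 (SE 0.05, limma adjusted p = 2.7e-04), and was not called in the Ballgown model. SCARB1, a scavenger receptor, stood at -0.10 (SE 0.06, limma adjusted p = 0.15). Of 7 transcription factors and regulators reported for the GLO1 promoter, NFE2L2, KEAP1 and MTF1 among them, 1 is listed by name. That is E2F4, a repressor of cell cycle genes, which had 47.9 ± 1.85 FPKM in WT and 28.2 ± 0.87 FPKM in KO (SD, n = 3) and fell by 0.74 (SE 0.06, limma adjusted p = 1.0e-05).

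Over the 7 lists without FN3K and GLO1, 46 of 90 genes are listed by name, of which 23 were higher, 9 lower and 14 not called in limma. These 69.6% called compare with 57.7% of all loci. The groups did not overlap for 34 of the 46, or 73.9%, where 63.4% of all loci had groups without overlap. Leaving out each library in turn changed the call of 7 of these genes at least once.

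Around FN3K, 20 other listed genes start within 1 Mb, 19 before its start and 1 past it, while no other listed gene starts within 1 Mb of GLO1. Of the 20 neighbours 5 were higher and 9 lower, and these 70% called compare with 57.7% of all loci. Their log2 fold changes ran from -1.05 to 1.32 with a median of -0.12, beside -3.78 for FN3K. Leaving out each library in turn changed the call of 4 of the 20. TBCD, a tubulin folding cofactor whose gene starts 16.5 kb past the start of FN3K, had 6.21 ± 0.996 FPKM in WT and 3.83 ± 0.569 FPKM in KO (SD, n = 3) and fell by 0.57 (SE 0.15, limma adjusted p = 0.011). WDR45B, an autophagy gene at -87.0 kb, fell by 0.36 (SE 0.06, limma adjusted p = 0.0014). The highest was FASN (fatty acid synthase), at -637 kb, which rose by 1.32 (SE 0.06, limma adjusted p = 6.1e-07), and the lowest RFNG, a glycosyltransferase of the Notch pathway, which fell by 1.05 (SE 0.10, limma adjusted p = 4.4e-05). In the Ballgown model 4 of the 20 were called, 2 in each direction, and TBCD, WDR45B and RFNG were not. This is 20%, near the 17.7% of all loci. Limma with the library covariate called 8 of the 20, or 40%, where 34% of all loci were called. The ordinary linear model with no covariate called 9, or 45%, where 46.2% of all loci were called.

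**Figure D4:**
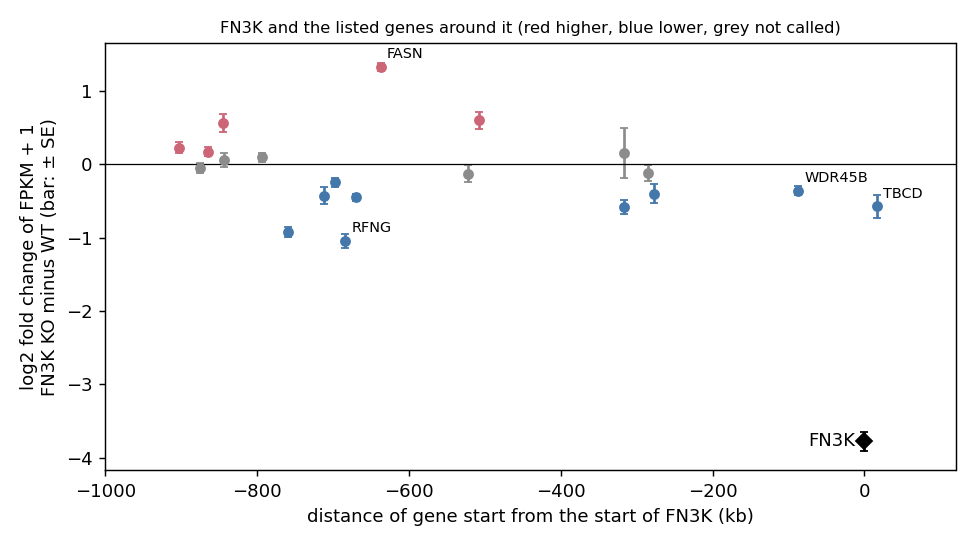
Log2 fold change of FPKM + 1, FN3K KO minus WT, with ± SE, by distance in kb of the gene start from the start of FN3K, for FN3K (diamond) and 20 listed genes within 1 Mb (red higher, blue lower, grey not called in limma). FN3K at -3.78 stands far under its neighbours, which lie between -1.05 and 1.32.

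The genes whose pattern was most like FN3K and GLO1 were ranked by the root mean square distance of log2(FPKM + 1), centred on the WT mean, over the 6 libraries and 4895 other named loci with a mean of at least 1 FPKM. Closest to GLO1 were METTL7A at 0.040, CFL2 at 0.042, GCNT2 and IL32 at 0.063 and MYO1A at 0.065. METTL7A, a protein of lipid droplets and the endoplasmic reticulum, had 22.2, 21.7 and 21.8 FPKM in WT and 50.2, 45.3 and 49.7 FPKM in KO. IL32, a cytokine gene, had 86.0, 88.3 and 96.0 FPKM in WT and 185, 191 and 217 FPKM in KO. Closest to FN3K were CTA-384D8.31 at 0.256 and KLHDC7B at 0.275, which match the same annotated gene, then BEST1 at 0.452, NPNT at 0.480 and IGFBP1 at 1.14. With only 2 groups, any gene that differs by a like amount between them ranks close.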

How the data were processed

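RNA of 3 WT and 3 FN3K KO plates was sequenced after oligo(dT) enrichment. The authors aligned the reads with HISAT2 at default settings, assembled transcripts with StringTie 2.0.6 and deposited FPKM for 6357 assembled loci, 4926 of them with a gene name. Their processing notes name GRCh38.p5. Neither strand nor any filter applied before deposit is given in the sources used here, and depth is unknown.

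All loci were fitted in R 4.3.3 with limma 3.58.1 (variance trend) on log2(FPKM + 1). Adjusted p-values are Benjamini-Hochberg values over all loci, with 0.05 as the limit. The scripts were tested on simulated data. Single values were compared by a two-sided exact permutation test. The alternatives changed the pseudocount to 0.1, required a mean of 1 FPKM, scaled libraries to a common 75th percentile, left out the variance trend, used an ordinary linear model with the library covariate of Ballgown (3 residual degrees of freedom, called the Ballgown model), blocked on replicate number, or dropped 1 library. The covariate within limma and the ordinary model without it were added after the data were seen. Distances run from gene start to gene start by strand. Coordinates came from GENCODE version 29 through the transcript identifiers of 4892 loci, and the GLO1 promoter from RefSeq, matched by symbol. Some items that the rule names are not reported here. The members and lists were chosen with earlier results of these data known. The genes named were FN3K, GLO1, members of the 7 lists, neighbours within 1 Mb and the 5 closest patterns of each, with examples from longer lists picked after their values were seen. Python 3.11.15 was used with numpy 2.4.6, pandas 2.3.3, scipy 1.17.1 and matplotlib 3.10.9.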

Additional observations from a re-analysis of the deposited data

How the results depend on the processing

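FN3K stayed lower and GLO1 higher, both past 0.05, under each alternative run. With 1 library left out FN3K ranged from -3.85 to -3.68, GLO1 from 1.11 to 1.18 and the difference of their log2 ratio from 5.89 to 6.23. The Ballgown model called 1127 loci, or 17.7%, against 3670, or 57.7%, in limma. It called 5 of 11 reductases and dehydrogenases (45.5%) against 9 (81.8%), and 2 of 9 glutathione genes (22.2%) against 8 (88.9%). Of 16 sugar and triose phosphate genes it called 5 (31.2%) against 11 (68.8%). It called 1 of 3 AGE receptor genes (33.3%) against 2 (66.7%), and 4 of 20 neighbours of FN3K (20%) against 14 (70%). Both of its changes were also made alone, chosen after seeing the data. Limma with the library covariate called 2160 loci, or 34%, and 5 of 9 glutathione genes, or 55.6%. It called 7 of 16 sugar and triose phosphate genes, or 43.8%, and 8 of 20 neighbours, or 40%. An ordinary linear model with no covariate called 2938 loci, or 46.2%, and 9 of 20 neighbours, or 45%. The replicate number as a block left FN3K at -3.78 and GLO1 at 1.14 and gave 3707 called loci. Deviations of same-numbered libraries correlated at 0.0096, 0.0061 and 0.046, and those of differently numbered ones between -0.045 and 0.035. No clear shared deviation was seen, which cannot show whether same-numbered plates were handled as pairs. With 1 library left out the calls ranged from 3090 to 3575 over all loci, from 8 to 9 for the reductases, from 6 to 7 for the glutathione genes, from 9 to 12 for the sugar genes, from 2 to 3 for the glyoxalase route and from 10 to 12 for the neighbours. The sign changed in 6 genes, none of them called in limma. With 1 library left out ACP1 ranged from -0.00083 to 0.11, AKR1B1 from -0.0026 (and -0.0021 without FN3K KO replicate 2) to 0.12, ALYREF from -0.046 to 0.15 and OGFOD3 from -0.24 to 0.43. With the library covariate, in either model, PNKD stood at -0.016 and C17orf62 at 0.14. FPKM without depth give no counting error, so what low values such as FN3K in KO allow could not be set.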
